A study of Mus musculus with 8 samples.

Results

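The kinesins are a family of motor proteins, and their transcripts were followed here in testis RNA of mice at postnatal day 23. Members were the probe sets of the array whose gene symbol is Kif followed directly by a number, with or without a further letter. Of 45101 probe sets, 98 met this rule, and they represented 35 of the 22666 gene symbols on the array. A probe set is a group of short oligonucleotides that reads 1 stretch of a transcript, and 26 of the 35 genes had several of them, at most 7. The arrays were Affymetrix Mouse430_2 arrays, with 1 array for each of 8 samples. The wildtype group held 5 samples, numbered 1, 2, 4, 6 and 7, and the group of Ctcfl mutants held 3, numbered 3, 5 and 8. Ctcfl encodes a testis paralog of the zinc finger protein CTCF, and the mutant allele lacks 5′ exons of the gene and carries a GFP sequence in their place, after deletion with a chicken actin-Cre transgene. The study describes mutants as homozygous for this allele (del/del) and controls as heterozygous littermates (del/+), whereas GEO's labels say wildtype for the controls, which is the name kept here. The deletion is carried by every cell of the mutant animals. The transcript of Ctcfl was not analysed here, and the genotype labels thus have no check of their own. The values are log2 levels of whole testis RNA, in which fewer cells of a type and less RNA per cell cannot be told apart.

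Kinesins use ATP to walk along microtubules or to take microtubules apart at their ends. In a dividing cell they build the spindle, move chromosomes and separate the daughter cells. In other cells they carry vesicles, organelles and RNA, and in cilia and sperm tails they move building material along the axoneme. The testis uses all of these activities, because its germ cells divide by mitosis and meiosis and then reshape themselves around microtubule structures such as the manchette and the flagellum. Families are numbered by the sequence of the motor domain. Those of the members here run from kinesin-1, the conventional cargo carrier, to kinesin-13, whose members depolymerise microtubules.

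The labelled tissue was borne out by germ cell transcripts, since 12 of 12 spermatid genes and 10 of 10 spermatocyte genes were measured above the median level of the array. On the first principal component of all probe sets, which held 44.9% of the variance, wildtype replicate 7 scored 40.2 and mutant replicate 8 scored 38.2, while the remaining 6 arrays scored between -24.8 and -3.10. These 2 arrays therefore stood apart from the rest, 1 in each genotype. The log2 summed level of the 12 spermatid genes, among them the protamine gene Prm1 and the transition protein gene Tnp1, reached 14.98 and 14.50 on these arrays, against 12.86 to 13.30 on the other wildtype and 12.56 and 13.02 on the other mutant arrays. Transcripts of fat cells moved with the same arrays, with a log2 summed level of 5 genes such as Adipoq of 11.56 and 11.48, against 9.18 to 9.65 and 8.70 to 8.87. The Gapdh control probe sets, which compare the 3′ and 5′ ends of the transcript, differed by 0.31 and 0.33 on these arrays and by 0.041 to 0.22 on the others. The same measure for beta-actin gave 1.13 and 1.03, against 0.75 to 1.03 on the others, so that mutant replicate 8 lay within their range. The part of fat or RNA quality in any kinesin value was not tested.

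Most kinesin transcripts departed little on these 2 arrays, and those of 3 genes were higher on both. Each of the 2 was compared with the mean of the other arrays of its own genotype, and this departure is a description without a test, since the arrays were singled out from their values. Of 98 kinesin probe sets, 91 stayed within 0.5 on the log2 scale on both arrays, and 61 stayed within 0.25. The median departure over the 98 was -0.023 on the first and -0.043 on the second, against -0.038 and -0.0021 over the whole array. Departures of at least 0.5 upward on both arrays were seen for 5 probe sets (5.10%), where 2.28% of all probe sets did so. They belonged to Kif2b, Kif17 and Kif27. The count was 3 with the quantile normalization repeated and 1 (Kif2b) with an offset on linear values, which shrinks log2 differences. No kinesin probe set was lowered by 0.5 on both arrays, against 0.630% of all probe sets. The 12 spermatid genes were all raised by 0.5 or more on both, with median departures of 1.31 and 1.40.

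**Figure D1:**
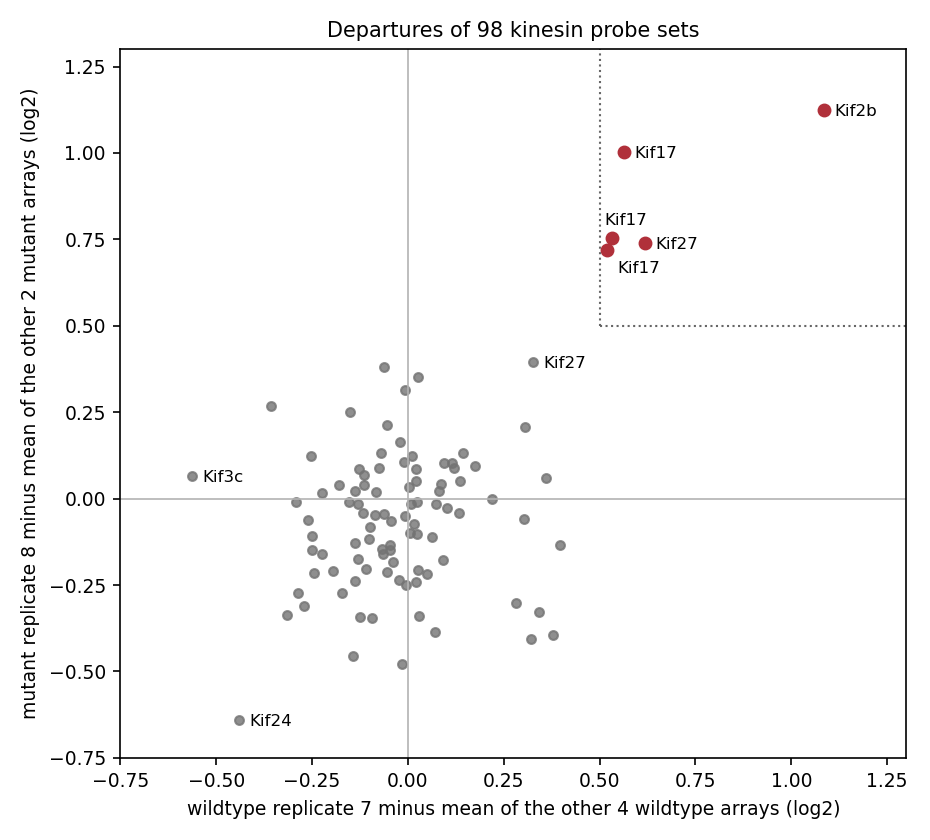
Departure of each of the 98 kinesin probe sets on wildtype replicate 7 (x axis) and mutant replicate 8 (y axis), in log2 units, from the mean of the other arrays of the same genotype. The 5 red points, of Kif2b, Kif17 and Kif27, are at least 0.5 higher on both arrays, and 91 of the 98 lie within 0.5 of 0 on both axes.

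Kif2b, a kinesin-13 motor that depolymerises microtubules at kinetochores and spindle poles, had the widest range of all kinesins. Its 1 probe set (1429333_at) read 9.45, 9.56, 9.66, 9.58 and 10.65 on wildtype replicates 1, 2, 4, 6 and 7, and 8.98, 9.44 and 10.33 on mutant replicates 3, 5 and 8. The 2 highest values were those of the arrays that stood apart, and the lowest was that of mutant replicate 3, which also had the lowest summed spermatid level, 12.56. The departures were 1.09 and 1.12, which is 2.12-fold and 2.18-fold on the linear scale. The genotypes overlapped, with a mutant minus wildtype difference of -0.20 ± 0.33 (SE; exact two-sided permutation p = 0.714). Among the other 6 arrays the difference was -0.35, and between the pair of arrays that stood apart it was -0.32. With this pair as a block of its own in the limma fit, the difference was -0.34 ± 0.10 (SE). The SE of 0.33 and the permutation test above include the gap between the pair and the other arrays. The pair was singled out from the values, and it held the 2 highest values of Kif2b. A smaller SE with the block is thus built into that choice, and it is not a test of genotype. No kinesin probe set passed the adjusted threshold in the fit with the block. The mutant mean of Kif2b was the lower one, but a genotype difference was not established, and no cause was tested.

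Kif17, a kinesin-2 motor whose testis form shuttles the transcriptional coactivator ACT in spermatids, followed the same arrays at 3 probe sets. Its main probe set (1422762_at) read 9.11, 9.14, 9.31, 9.48 and 9.79 on the wildtype arrays and 8.88, 9.17 and 9.78 on the mutant arrays, in the order of replicates given above. A further one (1419826_at) read 7.30, 7.25, 7.33, 7.48 and 7.90 against 6.86, 7.23 and 8.05, and 1419827_s_at read 8.75, 8.80, 8.89, 8.94 and 9.36 against 8.42, 8.79 and 9.32. At all 3 probe sets wildtype replicate 7 and mutant replicate 8 were the highest arrays and mutant replicate 3 the lowest, so the genotypes overlapped. The departures of the main probe set were 0.53 and 0.75, or 1.45-fold and 1.69-fold. Its genotype difference was -0.089 ± 0.21 (SE; exact two-sided permutation p = 0.786), and it was -0.23 among the other 6 arrays and -0.013 within the pair. With the pair as a block in the limma fit, the difference was -0.17 ± 0.11 (SE). As for Kif2b, the smaller SE is built into the choice of block.

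Kif27, a kinesin-4 relative of Kif7 that is known from motile cilia, was raised on the same arrays by less than Kif2b, and its values are given because of that rise, a choice made after they were seen. Its probe set 1431627_at read 5.61, 5.78, 5.66, 5.87 and 6.35 on the wildtype and 5.68, 5.83 and 6.49 on the mutant arrays. The means of both groups there lay below the median level of every array. The main probe set 1445404_at read 9.68, 9.60, 9.55, 9.63 and 9.94 against 9.51, 9.60 and 9.95. Both probe sets had their 2 highest values on the arrays that stood apart. The departures were 0.62 and 0.74 at the first and 0.33 and 0.40 at the main probe set, so Kif27 passed 0.5 on both arrays at 1 of its 2 probe sets.

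**Figure D2:**
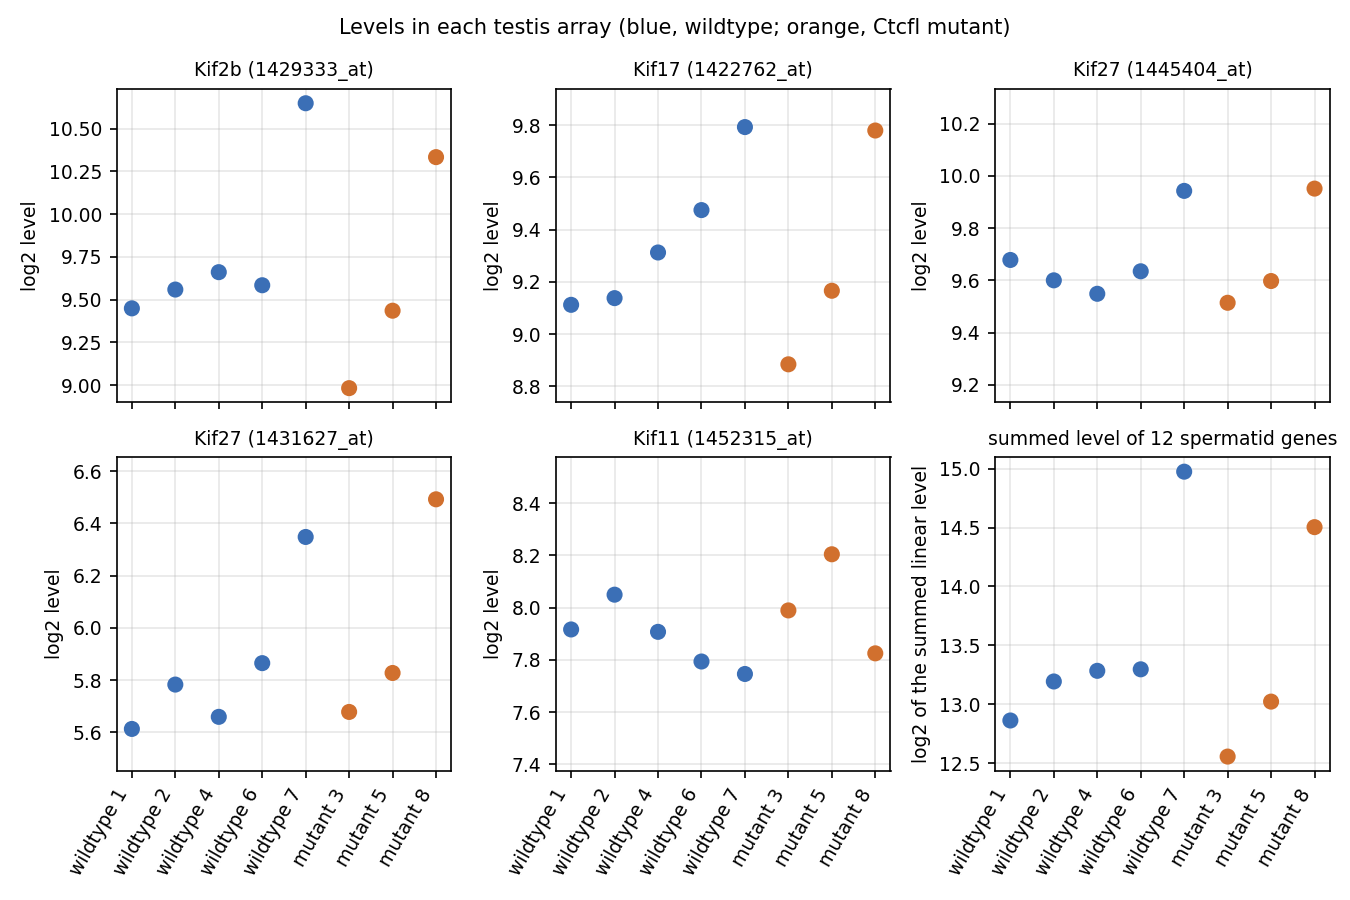
Log2 level on each of the 8 arrays (blue, wildtype; orange, Ctcfl mutant) for 5 probe sets of Kif2b, Kif17, Kif27 and Kif11, and the log2 summed level of 12 spermatid genes. Wildtype 7 and mutant 8 are the highest arrays for Kif2b (10.65 and 10.33), Kif17, Kif27 and the spermatid sum (14.98 and 14.50), but not for the spindle motor Kif11.

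Because these 3 genes were raised on the same arrays, the windows at their annotated starts are shown. Each holds the 250 bases before and 50 bases after the start (RefSeq, GRCm38.p6, 5′ to 3′ on the strand of the gene). The window lies at chr11:91577506-91577805 on the minus strand for Kif2b, at chr4:138262001-138262300 on the plus strand for Kif17 and at chr13:58354898-58355197 on the minus strand for Kif27. Capitals mark the motifs that were searched on both strands: TGACGTCA, the cyclic AMP response element bound by CREB and CREM, GTTGCC, part of the X-box bound by RFX factors, TTTGAA, the core of the cell cycle homology region, and CCAAT.
Kif2b: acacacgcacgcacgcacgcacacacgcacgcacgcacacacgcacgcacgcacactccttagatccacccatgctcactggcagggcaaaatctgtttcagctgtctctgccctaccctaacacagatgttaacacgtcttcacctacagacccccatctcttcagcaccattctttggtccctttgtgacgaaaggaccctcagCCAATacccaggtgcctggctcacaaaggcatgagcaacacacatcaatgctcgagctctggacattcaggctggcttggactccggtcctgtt
Kif17: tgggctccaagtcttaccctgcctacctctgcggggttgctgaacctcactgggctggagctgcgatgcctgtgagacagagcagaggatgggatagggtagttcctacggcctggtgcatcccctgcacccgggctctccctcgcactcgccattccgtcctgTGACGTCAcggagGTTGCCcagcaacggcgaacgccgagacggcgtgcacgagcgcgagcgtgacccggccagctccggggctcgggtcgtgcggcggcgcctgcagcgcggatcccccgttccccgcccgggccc
Kif27: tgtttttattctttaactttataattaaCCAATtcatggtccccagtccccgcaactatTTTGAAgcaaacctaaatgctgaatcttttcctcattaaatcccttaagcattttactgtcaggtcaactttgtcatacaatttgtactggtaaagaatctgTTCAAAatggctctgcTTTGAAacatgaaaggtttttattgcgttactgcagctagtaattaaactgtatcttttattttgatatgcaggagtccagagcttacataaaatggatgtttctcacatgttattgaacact
The 3 windows shared no motif of this search in all of them. Kif17 held TGACGTCA and GTTGCC next to each other, Kif2b held CCAAT, and Kif27 held CCAAT and 3 matches of TTTGAA or its reverse complement TTCAAA. TGACGTCA occurred in 3 of 34 kinesin promoters (8.82%; Kif17, Kif18a and Kif5c), against 1.79% of 32851 promoters of the same length. GTTGCC occurred in 11 of the 34 (32.4%; 10 genes), against 12.5%, and CCAAT in 14 (41.2%; 13 genes), against 37.4%. The windows of Kif9 overlap, as do those of Kif1b, so the same sites were counted again there. A match of letters is a description of the window and says nothing of a bound factor. In Kif27 the bases just before the annotated start read like the end of an intron. Whether that window is a promoter was not tested. Promoters were found for 30 of the 35 genes, some with several starts, and Kif5a, Kif5b, Kif13b, Kif20a and Kif21b had no entry.

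Ranks gave a wider but weaker picture of the same arrays. Both arrays lay above all other 6 at 7 kinesin probe sets (7.14%), against 8.60% of all probe sets. Beside Kif2b, 3 probe sets of Kif17 and 2 of Kif27, this group held 1 of the 4 probe sets of Kif2c, with departures of 0.17 and 0.095. Both arrays lay below all other 6 at 9 kinesin probe sets (9.18%), against 10.3% of all probe sets. These shares were close to the background, so the direction of ranks did not set the kinesins as a group apart. Among the 9 were all 3 probe sets of Kif22, a chromokinesin that pushes chromosome arms along the spindle. Its main probe set (1423813_at) read 8.37, 8.17, 8.10, 8.17 and 7.98 on the wildtype and 8.21, 8.13 and 8.01 on the mutant arrays. The departures of Kif22 lay between -0.22 and -0.065 on wildtype replicate 7 and between -0.21 and -0.16 on mutant replicate 8. The group also held 2 of the 4 probe sets of Kif24, a kinesin-13 motor that restrains the outgrowth of primary cilia, with departures of -0.44 and -0.64 at 1453947_at and of -0.24 and -0.22 at the main probe set. Single probe sets of Kif5b, Kif5c, Kif12 and Kif21b completed it, with departures between -0.31 and -0.047. The log2 summed level of 8 genes of dividing cells was 13.39 and 13.37 on the arrays that stood apart, against 13.41 to 13.52 and 13.50 to 13.51 on the others.

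The comparison of genotypes asked which kinesin transcripts differ in testis without functional CTCFL. With limma, 0 of 98 kinesin probe sets passed an adjusted p of 0.05, the same as on the whole array (0%), and the smallest adjusted p of a kinesin was 1.0. A one-way comparison without shared variance gave 0 as well. At an unadjusted limma p under 0.05 there were 2 kinesin probe sets (2.04%), both higher in mutant testis, against 3.47% of all probe sets, and the one-way comparison also gave 2. The limma count was 4 without mutant replicate 8 and 4 without both arrays that stood apart. The ranges of the genotypes were separate at 3 kinesin probe sets (3.06%), against 2.70% of all probe sets. These shares were near the background. The differences ran from -0.20 to 0.27, where the mutant mean was the higher at 51 probe sets and the lower at 47, with a median of 0.0060, against 0.0032 over all probe sets. The median size of the difference, taken without its sign, was 0.066 for kinesins and 0.061 for all probe sets. Nothing in the labels ties a sample to an animal beyond its number, so the p-values measure the spread between these samples.

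**Figure D3:**
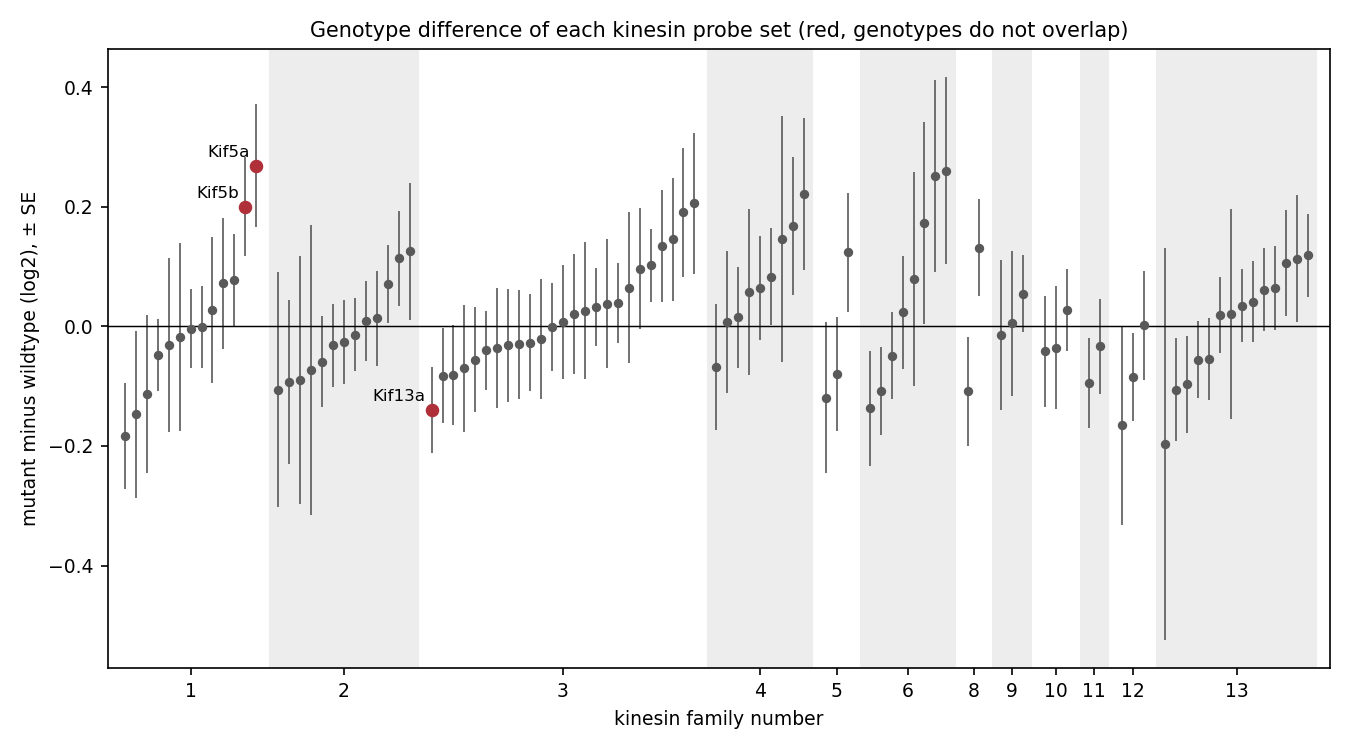
Mutant minus wildtype difference of each kinesin probe set with its limma standard error, in log2 units, sorted within the family numbers on the x axis. The 3 red points, of Kif5a (0.27), Kif5b (0.20) and Kif13a (-0.14), are the probe sets without overlap between the genotypes, and the other differences lie on both sides of 0.

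Kinesin-1 is the conventional motor that carries vesicles, mitochondria and RNA toward microtubule plus ends, with the heavy chains Kif5a, Kif5b and Kif5c. Its 13 probe sets held both of those with an unadjusted p under 0.05, at Kif5a and Kif5b. Kif5a (1434670_at) read 6.13, 5.78, 6.13, 6.08 and 6.12 on the wildtype and 6.15, 6.46 and 6.35 on the mutant arrays. The lowest mutant value lay just above the highest wildtype value, and wildtype replicate 2 lay below the rest. The means were 6.05 ± 0.15 (SD, n = 5) and 6.32 ± 0.16 (SD, n = 3), a difference of 0.27 ± 0.10 (SE; unadjusted limma p = 0.0267, adjusted p = 1.0; exact two-sided permutation p = 0.0357). That permutation p, a doubled one-sided value, is the smallest that the test gives over the 56 splits of the arrays. Both means lay below the median level of every array. The other probe set that names Kif5a also names Kif5c (1450249_s_at), and it differed by 0.077.

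Kif5b, the heavy chain of most tissues, had 6 probe sets that did not move together. At 1453524_at it read 6.83, 6.82, 6.56, 6.76 and 6.64 on the wildtype and 7.02, 6.90 and 6.84 on the mutant arrays. The genotypes touched without overlapping, and the means were 6.72 ± 0.12 (SD, n = 5) and 6.92 ± 0.089 (SD, n = 3). The difference was 0.20 ± 0.083 (SE; unadjusted limma p = 0.0377, adjusted p = 1.0; exact two-sided permutation p = 0.0357). The other 5 probe sets of Kif5b differed by -0.15 to 0.072, and 3 of them had the opposite sign. The main probe set (1418427_at) read 9.92, 9.95, 9.76, 9.72 and 9.57 against 9.98, 9.94 and 9.65, and the genotypes overlapped there. Mutant replicate 8 lay below the other 2 mutant arrays at all 6 Kif5b probe sets, with departures of -0.45 to -0.12. At 1418429_at it was the lowest of the 8 arrays (9.06) and wildtype replicate 7 the highest (9.74), and the same order held at 1418428_at. For Kif5c, best known from neurons, the main probe set (1455266_at) read 7.51, 7.58, 7.13, 6.93 and 7.35 on the wildtype and 7.18, 7.43 and 7.19 on the mutant arrays. Its wildtype arrays spanned more than the mutant arrays and enclosed them.

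The third probe set without overlap belonged to Kif13a, a kinesin-3 motor that carries mannose 6-phosphate receptors and endosomes. At 1451890_at it read 5.34, 5.29, 5.29, 5.23 and 5.23 on the wildtype and 5.20, 5.21 and 4.99 on the mutant arrays. Every mutant array read lower than the lowest wildtype array, but by little except on mutant replicate 8. The difference was -0.14 ± 0.072 (SE; unadjusted limma p = 0.0814, adjusted p = 1.0; exact two-sided permutation p = 0.0357). Without mutant replicate 8 it was -0.068. The means of both groups at this probe set lay below the median level of every array. The other 4 probe sets of Kif13a differed by -0.027 to 0.15, and 3 of them had the opposite sign. Over the 26 genes with several probe sets, all differences of a gene had 1 sign in 9.

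Kinesin-2 drives intraflagellar transport, which builds cilia and sperm tails, through the pair Kif3a and Kif3b with the adaptor Kifap3. Kif3a (1420375_at) read 10.29, 10.44, 10.22, 10.25 and 10.25 on the wildtype and 10.25, 10.44 and 10.21 on the mutant arrays. Kif3b (1420987_at) read 10.61, 10.49, 10.63, 10.68 and 10.54 against 10.57, 10.65 and 10.57. Both main probe sets overlapped between the genotypes, and the 8 probe sets of these genes departed by -0.29 to 0.14 on wildtype replicate 7 and by -0.27 to 0.13 on mutant replicate 8. Kif3c, the partner that replaces Kif3b in some cells, was low on 1 array. Its main probe set (1448946_at) read 8.05, 8.19, 8.29, 8.14 and 7.60 against 7.97, 7.91 and 8.01, so that wildtype replicate 7 lay 0.56 below the other wildtype arrays while mutant replicate 8 did not depart downward (0.066). Kif17 thus stood alone among the 4 kinesin-2 genes in being raised by 0.5 or more on both arrays, which is a description of these values. The adaptor gene Kifap3 departed by 0.38 and 0.36 at its main probe set, but by -0.044 and 0.063 at its other probe set (1451783_a_at).

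Kinesin-9 motors belong to motile cilia and flagella. Kif9 (1420395_a_at), a motor of the axonemal central pair whose probe set also names a further locus, read 11.50, 11.47, 11.53, 11.57 and 11.53 on the wildtype and 11.48, 11.59 and 11.66 on the mutant arrays. The 8 values spanned 0.19, with departures of 0.012 and 0.12, and the genotypes overlapped. Kif6 departed by at most 0.12 on either array at its 2 probe sets. These flagellar motors were therefore not raised with Kif2b and Kif17 by the measure of 0.5.

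Several motors of the spindle and the midzone were measured, and none passed the test between genotypes. Kif11, the bipolar kinesin-5 that pushes spindle poles apart, read 7.92, 8.05, 7.91, 7.79 and 7.75 on the wildtype and 7.99, 8.20 and 7.83 on the mutant arrays at its main probe set (1452315_at). Mutant replicate 5 was its highest array at all 3 probe sets, and mutant replicate 8 departed by -0.48 to -0.21. Kif18a, a kinesin-8 motor that dampens chromosome movement and is needed for germ cell development, read 8.58, 8.34, 8.42, 8.35 and 8.45 against 8.30, 8.51 and 8.16 (1424107_at). Mutant replicate 8 was the lowest array here, and mutant replicate 5 lay inside the wildtype range. Kif4, a chromokinesin of the midzone, read 6.78, 6.67, 6.89, 6.77 and 6.64 against 6.71, 6.94 and 6.85 (1450692_at). Kif2c, the centromeric kinesin-13 depolymerase, read 7.92, 7.75, 7.81, 8.06 and 7.82 against 7.94, 8.11 and 7.88 at its main probe set (1454221_a_at). The genotypes overlapped for each of these motors, and their main probe sets differed by -0.11 to 0.12.

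Kinesin-6 motors bundle the midzone and act in cytokinesis. Kif20a (1449207_a_at), which brings the chromosomal passenger complex to the midzone, read 10.48, 10.43, 10.34, 10.34 and 10.36 on the wildtype and 10.44, 10.36 and 10.22 on the mutant arrays. Kif23, the motor of centralspindlin and a component of the bridges between germ cells, varied more across the arrays at its main probe set than Kif20a, Kif11, Kif18a, Kif4 and Kif2c did. Its main probe set (1455990_at) read 9.25, 9.88, 9.24, 9.65 and 9.86 against 9.89, 9.73 and 9.87. Wildtype replicates 1 and 4 were low and the other 6 arrays lay close together, and 1453748_a_at was low on the same 2 arrays, at 6.57 and 6.37 against 6.82 to 7.18. At 1450827_at wildtype replicate 1 was lowest (3.96), followed by wildtype replicate 6 (4.24). The genotype difference of the main probe set was 0.25 ± 0.16 (SE; exact two-sided permutation p = 0.214), with overlap. Kif20b, the third kinesin-6 gene, differed by -0.14 to 0.079 at 4 probe sets. Racgap1, the partner of Kif23 in centralspindlin, differed by -0.041 ± 0.074 (SE) at its main probe set.

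Many of these division motors share a short promoter motif, so the 36 bases around it are shown for 5 of them. The letters TTTGAA, or TTCAAA on the other strand, form the core of the cell cycle homology region that is known from genes expressed in G2 phase and mitosis, and they stand in capitals.
Kif11: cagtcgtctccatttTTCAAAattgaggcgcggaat
Kif15: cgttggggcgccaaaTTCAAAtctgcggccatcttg
Kif22: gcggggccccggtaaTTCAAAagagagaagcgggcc
Kif23: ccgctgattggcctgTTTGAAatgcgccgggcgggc
Kif4: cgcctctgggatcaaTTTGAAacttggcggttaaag
The windows are chr19:37376348-37376383 (plus strand) for Kif11, chr9:122951047-122951082 (plus) for Kif15, chr7:127042417-127042452 (minus) for Kif22, chr9:61946777-61946812 (minus) for Kif23 and chrX:100626069-100626104 (plus) for Kif4. The motif began 19 bases upstream of the start in Kif11 and Kif15, 17 bases upstream in Kif22, and 2 and 19 bases downstream of it in Kif23 and Kif4. It occurred in 11 of 34 kinesin promoters (32.4%), against 17.9% of all promoters. Those of Kif11, Kif14, Kif15, Kif20b, Kif22, Kif23, Kif2c and Kif4, all motors of division, were among the 11, and so were those of Kif1a, Kif26b and Kif27. In Kif14, Kif27 and the matching window of Kif1a, the bases just before the annotated start read like the end of an intron. Whether these windows are promoters was not tested, nor was the share of such windows among all promoters. The division motors Kif18a, Kif2a and Kif2b had no match. In Kif14 and Kif2c the motif lay farther out than in the windows shown, at positions -228 and -103 relative to the start.

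**Figure D4:**
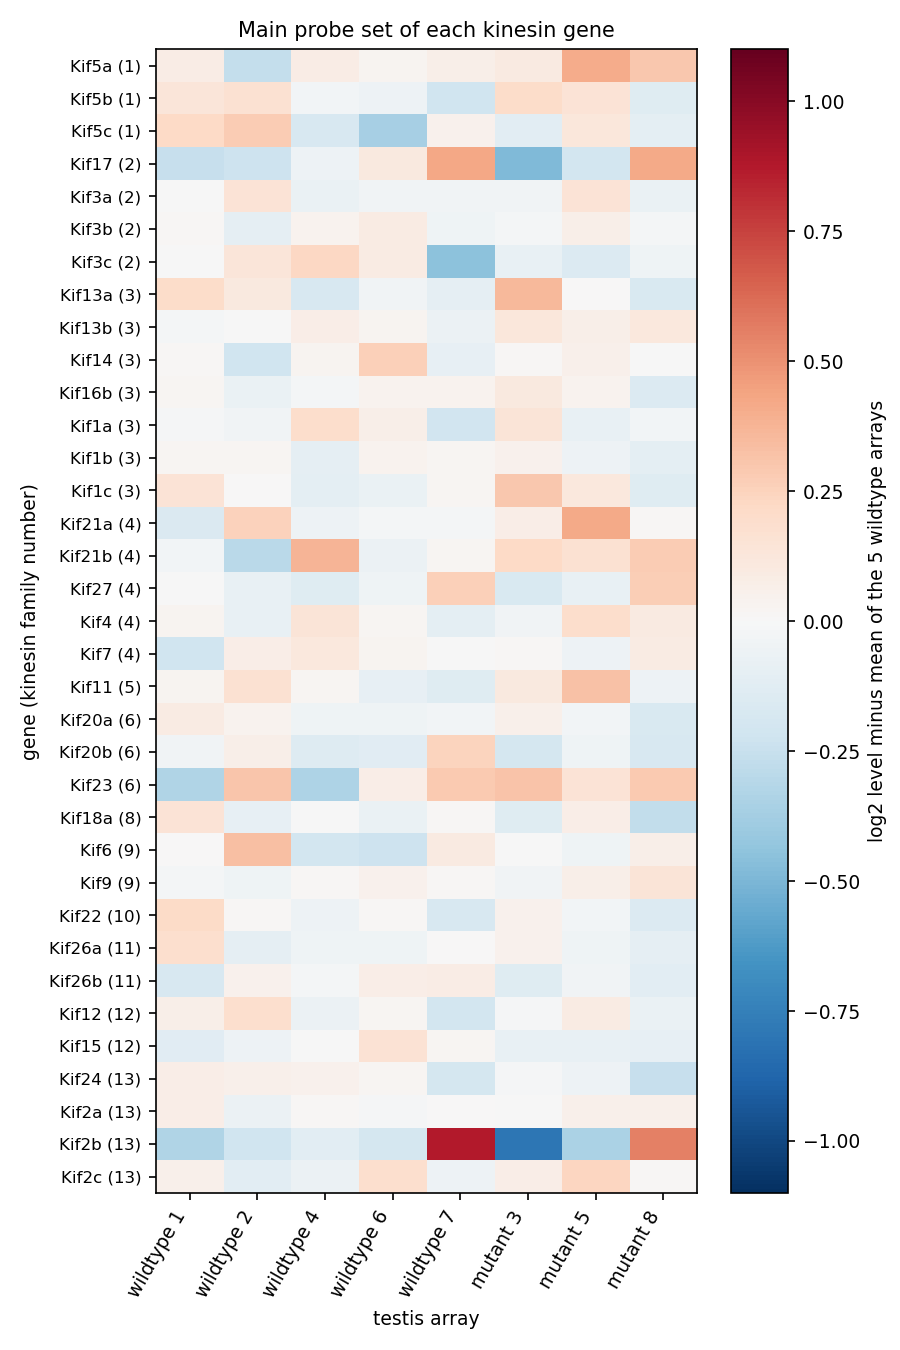
Log2 level of the main probe set of each of the 35 kinesin genes on the 8 arrays, minus the mean of the 5 wildtype arrays, with the family number in brackets. Kif2b and Kif17 are high on wildtype 7 and mutant 8 and low on mutant 3, Kif3c is low on wildtype 7, and Kif23 is low on wildtype 1 and 4.

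No probe set of the remaining families passed the test between genotypes. Kinesin-3, which carries synaptic vesicle precursors, mitochondria and endosomes and includes the cytokinesis motor Kif14, had 25 probe sets of 7 genes (Kif1a, Kif1b, Kif1c, Kif13a, Kif13b, Kif14 and Kif16b). Of these 13 were higher and 12 lower in mutant testis, between -0.14 and 0.21, with departures of -0.29 to 0.28 and -0.35 to 0.38. Kinesin-4 had 9 probe sets of 5 genes, 8 of these probe sets higher in mutant testis, between -0.068 and 0.22, and none passed the test. Within it, Kif21a, which restrains microtubule growth at the cell cortex, read 9.09, 9.50, 9.19, 9.22 and 9.22 on the wildtype and 9.32, 9.66 and 9.25 on the mutant arrays (1450738_at). Kif21b, its close relative, read 7.83, 7.56, 8.23, 7.80 and 7.88 against 8.08, 8.03 and 8.14 (1435772_at). Its mutant values lay inside the range of the wildtype arrays, which was set by replicates 2 and 4. Kif7, a regulator of Hedgehog signalling at the tip of the cilium, differed by 0.015, and by -0.022 without the arrays that stood apart. Without those arrays 1445404_at of Kif27 differed by -0.060, so the count of 8 higher kinesin-4 probe sets depended on them. Kinesin-11, the atypical motors Kif26a and Kif26b, differed by -0.033 and -0.095. Kinesin-12, with Kif12 and the spindle motor Kif15, differed by -0.17 to 0.0015 at 3 probe sets, of which 1453193_s_at of Kif12 spanned 0.93 over the 8 arrays, from 4.25 on mutant replicate 3 to 5.17 on wildtype replicate 4. Kif2a, the kinesin-13 depolymerase of neurons and spindle poles, differed by -0.055 to 0.12 at 5 probe sets.

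Genes that work with kinesins moved as little between genotypes. The 10 partner genes were the light chains Klc1 to Klc4, which link kinesin-1 to cargo, Kifap3, the adaptors Trak1, Trak2, Mapk8ip1 and Mapk8ip3, and Kif1bp. Of their main probe sets 6 were higher and 4 lower, and 0 passed an adjusted or an unadjusted limma p of 0.05. The same held for 5 kinesins outside the name rule (Kifc1, Kifc2, Kifc3, Kifc5b and Cenpe, with Kifc1 and Kifc5b on the same probe sets), of which 2 were higher and 3 lower, and for 9 spindle and midzone partners such as Prc1, Aurkb and Tpx2, of which 5 were higher and 4 lower. Among their further probe sets, 1 of Trak2 (0.23) and 1 of Aurka (0.23) had an unadjusted p under 0.05, with an adjusted limma p of 1.0. At that threshold 3.47% of all probe sets were called. The wildtype and mutant means were 5.05 and 5.29 for Trak2 and 5.37 and 5.61 for Aurka, below the median level of every array. The median difference of the 3 lists was 0.036, -0.047 and 0.0072, against 0.0032 over all probe sets. On the arrays that stood apart, Mapk8ip1, a scaffold that joins kinesin-1 to JNK signalling, departed by -0.55 and -0.63 and was the only 1 of these genes lowered by 0.5 or more on both at its main probe set. Its other probe set (1440619_at) departed by -0.22 and 0.0030. No main probe set of the 3 lists was raised by 0.5 or more on both.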

How the data were processed

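The deposited table held log2 levels of 45101 probe sets on 8 arrays, made by the authors from Affymetrix Mouse430_2 scans with Gene Expression Console, RMA background correction and quantile normalization (versions not given in the sources used here). RMA compresses differences of dim probe sets. The authors' own log fold changes and p-values, in this and further tables, were not used. Genotype was the 1 term of a limma fit of all probe sets (version 3.58.1 under R 4.3.3; lmFit, then eBayes), with two-sided p-values and Benjamini-Hochberg adjustment. The fit was tested on simulated data. Tables, permutation tests and plots were made in Python 3.11.15 (pandas 2.3.3, numpy 2.4.6, matplotlib 3.10.9, scipy 1.17.1). A gene's main probe set is one without _s_at or _x_at that names 1 gene, where there is one, then that of the highest mean level. Levels per array were given for genes without overlap or with an unadjusted p under 0.05, the 8 genes with the largest range at the main probe set, and 13 motors of known germ cell or spindle role. Kif27 was added after its values were seen. The 98 members and all lists were chosen with earlier results of these data known. Of 38 Kif symbols in the RefSeq gene table, 35 named probe sets of the array. Further Kif genes under other symbols (2 probe sets) were not members, and 3 members also name another gene. Promoters and their coordinates came from RefSeq (GRCm38.p6). They are windows at annotated starts, some of which may lie inside a gene.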

Additional observations from a re-analysis of the deposited data

Results flagged for a closer look

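Among the kinesin genes whose values on every array are given, 19 were examined for a wildtype array far from the other 4, by the gap to its neighbour over the whole range. This separated 2 values. Chance alone separates about 1 in 20 groups, but no chance count applies here, since both genes were among those chosen for a wide range over the arrays. Kif5a (1434670_at) on wildtype replicate 2 was 5.78, below the next value of 6.08, with a gap of 0.841 of the range. Kif2b (1429333_at) on wildtype replicate 7 was 10.65, above the next value of 9.66, with a gap of 0.824 of the range. The groups of 3 mutant arrays were too small to examine.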

How the results depend on the processing

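The study describes littermates, but the labels do not say which samples share a litter. A paired analysis was therefore not possible. The count of kinesin probe sets past an adjusted p of 0.05 was 0 under every refit, and the smallest adjusted p of any kinesin was 0.751. The count at an unadjusted p under 0.05, which was 2, became 4 without wildtype 7 and mutant 8, 4 with these arrays as a block, 1 among probe sets above the median level, 1 with an intensity trend and robust prior, and 1 with the main probe set of each gene. Leaving out each array in turn gave 2 to 4, the highest without mutant replicate 8. The median difference of 0.0060 then ran from -0.013 to 0.022. Other probe sets reversed the sign for Kif5b (-0.15, -0.11 and -0.018) and Kif13a (0.15, 0.032 and 0.065). Over the refits Kif5a kept a difference of 0.12 to 0.35, Kif5b of 0.11 to 0.24 and Kif13a of -0.18 to -0.041, each smallest with an offset on the linear scale. The count raised by 0.5 on both arrays that stood apart, which was 5, became 3 with quantile normalization repeated, 1 with an offset on the linear scale and 1 at a threshold of 1. An offset shrinks log2 differences, here also those of Kif5a, Kif5b and Kif13a, and a higher threshold is harder to pass. The falls under these settings are thus built into them. The cause of the other changes was not tested. Kif5a and Kif13a could not be evaluated above the median level. Of 98 probe sets, 48 kept their sign in all 18 refits. The number of arrays limits all these values.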
